A study of Mus musculus with 800 samples.

Results

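The 35 genes described here act when a cell divides: they encode mitotic cyclins and kinases, checkpoint and anaphase proteins, kinetochore and spindle proteins, and proteins that fold and separate chromosomes. They were chosen by function, as a list of named mitosis, kinetochore and spindle genes, and all 35 were found among the 49585 gene entries of the deposited table. Their counts were read in each retinal cell, summed per cell, and set out over cells with Fgf15, Atoh7, Tfap2b or Pou4f2.

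The cells came from the C57BL/6 mouse retina at embryonic day 15.5, in a Sert-Cre line shared by both groups, and were labelled either Tomato+ or Tomato-. Sert-Cre places Cre recombinase under the serotonin transporter gene Slc6a4, which is known in the retina from a set of ganglion cells, and the labels give no further detail on the cells in which the transgene is active. Per the labels 30 retinas were dissociated and sorted, with no animal named for any cell, the Tomato allele and the sorting gate not described, and SmartSeq2 libraries made from 400 cells of each group. Each group is therefore 1 pool without replicate animals: no test between groups was possible, and the 10 title numbers of each group, which divide its cells into sets of 40, serve only as a measure of spread.

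Retinal progenitors divide at the outer surface of the retina and give rise to neurons, which leave the cell cycle and do not divide again. Most mitotic genes are transcribed in late S phase, G2 and M phase and are silent in G0 and early G1. Their promoters are known for a short element called the cell cycle genes homology region, bound by the DREAM and MuvB complexes with B-MYB and FOXM1, and for CCAAT boxes bound by NF-Y. Fgf15 marks retinal progenitors, Atoh7 the precursors from which ganglion cells arise, Tfap2b amacrine and horizontal precursors, and Pou4f2 ganglion cells.

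The promoters are shown first, because these elements are what many of the 35 genes share in sequence. RefSeq promoter windows (build GRCm38.p6, the patch release of mm10) were found for 30 of the 35 genes, as 32 windows. Each spans 250 bases before and 50 after a RefSeq start. In 21 windows the bases just after the start occur near the beginning of a GENCODE transcript. An exact match of the starts was not required. The homology region was searched as TTTGAA or TTCGAA and the CCAAT box as CCAAT, each on both strands, so that TTCAAA and ATTGG are the same elements on the other strand. The element TTTGAA or TTCGAA was present in 26 of the 30 genes (86.7%), against 21.7% of 27025 genes with a window and 15.9% of the 6411 genes with a window that were detected widely enough to be compared here. CCAAT was present in 24 of the 30 (80%), against 41.1% of all genes. Both were present in 22 (73.3%), against 8.61%. Within the last 100 bases before the start, 8 of the 30 genes (26.7%) held both elements, against 1.36% of all genes. Those 100 bases are printed for the 8 genes, 5′ to 3′ on the gene's strand, with both elements in capitals, with the second of 2 windows for Prc1, and followed by Ccnb1, whose window holds CCAAT but not the other element.
Top2a, chr11:99024190-99024289, minus strand: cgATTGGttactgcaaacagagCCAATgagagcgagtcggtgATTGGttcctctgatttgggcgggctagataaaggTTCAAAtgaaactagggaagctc
Cdk1, chr10:69352913-69353012, minus strand: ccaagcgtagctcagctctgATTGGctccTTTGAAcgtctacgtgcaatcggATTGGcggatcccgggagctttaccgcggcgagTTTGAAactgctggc
Cdc20, chr4:118437344-118437443, minus strand: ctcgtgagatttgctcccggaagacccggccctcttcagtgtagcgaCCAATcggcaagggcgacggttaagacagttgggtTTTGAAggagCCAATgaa
Ube2c, chr2:164769829-164769928, plus strand: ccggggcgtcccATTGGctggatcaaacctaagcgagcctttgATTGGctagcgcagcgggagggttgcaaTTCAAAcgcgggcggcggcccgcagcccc
Ckap2l, chr2:129297213-129297312, minus strand: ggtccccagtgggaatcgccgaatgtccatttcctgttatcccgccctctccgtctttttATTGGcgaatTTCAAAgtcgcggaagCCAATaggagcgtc
Kif11, chr19:37376282-37376381, plus strand: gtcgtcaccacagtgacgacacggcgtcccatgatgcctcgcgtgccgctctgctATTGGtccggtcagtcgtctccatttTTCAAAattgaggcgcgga
Hmgb2, chr8:57511743-57511842, plus strand: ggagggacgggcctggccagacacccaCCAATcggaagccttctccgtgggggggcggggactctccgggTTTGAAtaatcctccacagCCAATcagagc
Prc1, chr7:80294376-80294475, plus strand: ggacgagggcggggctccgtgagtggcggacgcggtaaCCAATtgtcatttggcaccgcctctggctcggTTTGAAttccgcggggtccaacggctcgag
Ccnb1, chr13:100786487-100786586, minus strand: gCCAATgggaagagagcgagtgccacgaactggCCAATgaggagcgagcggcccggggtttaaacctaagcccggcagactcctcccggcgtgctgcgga
In Cdk1 the element TTTGAA began 71 and 15 bases before the start, and in Cdc20 18 bases before it. In Ckap2l, Hmgb2 and Prc1 it began 30 bases before the start, and in Ube2c 29. Aspm, Cenpf, Bub1 and Aurka held it after the start, beginning 6, 2, 14 and 32 bases past the base of the start itself. The 4 genes without it in the window were Ccnb1, Cenpe, Birc5 and Nusap1, and the windows of Birc5 and Nusap1 held no CCAAT either. A match describes letters in a window; binding was not measured.

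Cells with at most 20% of counts in mitochondrial genes and at least 1000 genes were kept, so that 73 of the 400 Tomato+ and 38 of the 400 Tomato- cells were left out. Depth was similar: totals had a median of 271789 counts per kept Tomato+ cell (9653 to 644293) and 243410 per kept Tomato- cell (16826 to 689788). As a check of the labels, at least 5 counts of Slc6a4 were present in 36.7% of the Tomato+ cells against 0.276% of the Tomato- cells, and of Pou4f2 in 64.8% against 25.7%. Fgf15 went the other way, with 2.75% against 54.1%. Levels below are CPM, that is, counts scaled to a fixed library total, here the summed counts of a group or of a title number. A log2 ratio is Tomato+ over Tomato- after adding 10 CPM to each, which understates the difference for genes of low level. Intervals are exact 95% Poisson or Clopper-Pearson intervals and cover counting error only. The Poisson intervals treat counts as independent and may be too narrow, since whether counts are molecules or reads is not stated.

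Together the 35 genes stood at 6614 CPM in Tomato- cells (6598 to 6631) against 250.2 CPM in Tomato+ cells (246.9 to 253.6), which is 26.4-fold. That is 0.661% of all Tomato- counts against 0.0250% of all Tomato+ counts. Over the 10 Tomato+ title numbers the sum ran from 122.4 to 734 CPM (median 165.9), and over the 10 Tomato- title numbers from 4475 to 9480 CPM (median 6363), so the highest Tomato+ set lay well below the lowest Tomato- set. The log2 ratio of the sum was -4.67, with an SD between title numbers of 0.62. Title numbers 5 and 8 were the highest Tomato+ sets, at 734 and 472 CPM, and the ratio without them was -5.30.

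Every one of the 35 genes was at least 2-fold lower in Tomato+ cells on this scale, among them the 31 that 10% or more of the cells of either group held at 5 counts or above. Over all 8356 genes detected that widely, 6.33% were at least 2-fold lower and 3.51% at least 2-fold higher. Of the 31, only Hmgb2 (27.8%) and Smc4 (20.2%) reached 10% of Tomato+ cells. The rest passed only through Tomato- cells, where they were higher, so their direction was partly fixed by the limit. The 8356 genes could pass through either group. Of all genes past 2-fold, 64.4% were lower in Tomato+, and 53.9% and 52.5% with TMM and median-of-ratios scaling, the second of which shifted the median of all genes by 0.11. In 30 of the 35 genes no Tomato+ title number reached the lowest Tomato- title number, against 3.67% of all genes in this direction and 2.03% in the other. With TMM or median-of-ratios scaling 34 of the 35 were at least 2-fold lower. The exceptions to the separation were Ccnf, Aurka, Kif2c, Kif20a and Iqgap3. The median log2 ratio was -3.11, against -0.04 over all genes, and the 35 ratios ran from -5.01 to -1.03. The difference exceeded the SD between title numbers in 35 of 35 genes, a limit for which the share over all genes was not computed.

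**Figure D1:**
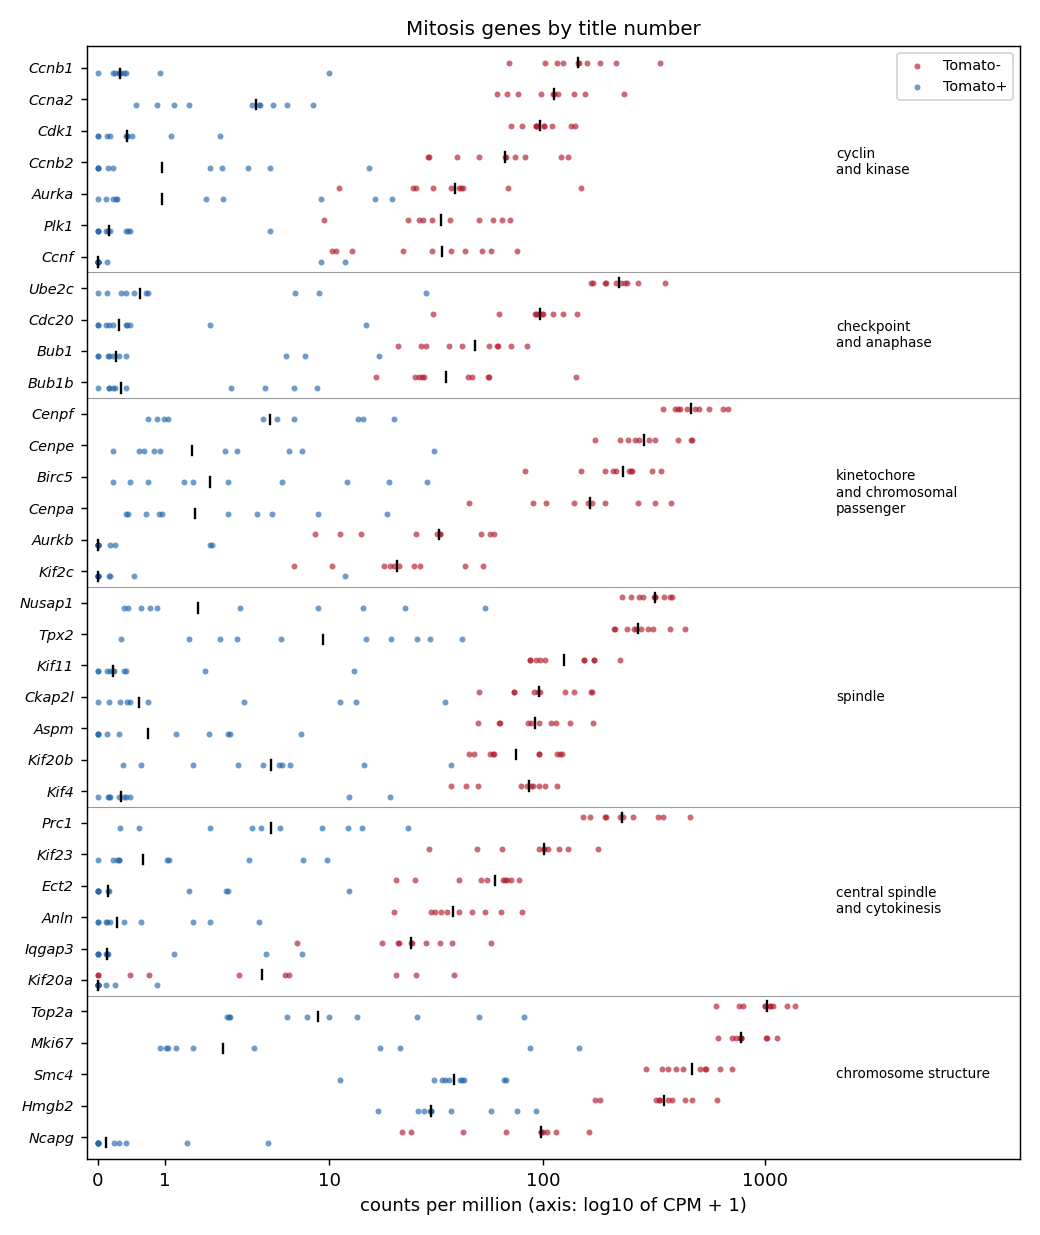
Level of each of the 35 genes in each title number, in CPM on an axis of log10(CPM + 1); red points are the 10 Tomato- and blue points the 10 Tomato+ title numbers, black ticks their medians, and genes are grouped by role. In 30 of 35 genes the red and blue points do not overlap.

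The log2 ratios with 10 CPM added order the genes partly by level, and the order of genes and roles given by them below changed with 1 CPM added or in the plain ratio of CPM. With 1 CPM added Cdk1 had the lowest ratio of the 35 genes (-6.11), followed by Cenpf (-6.03) and Ccnb1 (-6.01). Among the chromosome structure genes, Top2a encodes DNA topoisomerase II alpha, which untangles sister chromatids, and lies at chr11:98992943-99024189 on the minus strand (mm10). It stood at 2.81 to 81.9 CPM (median 8.86) over Tomato+ title numbers and at 601 to 1360 CPM (median 1027) over Tomato- title numbers. No Tomato+ set came near a Tomato- set, and the log2 ratio of -5.01 (SD between title numbers 0.75) was the lowest of all 8356 genes with 10 CPM added; with 1 CPM added it was -5.48 and ranked 13. At least 5 Top2a counts were present in 67.1% of Tomato- cells against 5.20% of Tomato+ cells, while 41.3% of Tomato+ cells held at least 1 count. Mki67, the Ki-67 protein that coats mitotic chromosomes, stood at 0.91 to 144.2 CPM (median 2.85) and 612 to 1128 CPM (median 780.4), with a log2 ratio of -4.56 (SD 1.02). In Tomato+ cells, 87.2% of Mki67 counts came from 5 cells. Ncapg, a condensin subunit, stood at 83.3 CPM in Tomato- against 0.800 CPM in Tomato+ cells, 104.2-fold higher.

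Smc4, the condensin ATPase subunit, and Hmgb2, a chromatin protein that bends DNA, kept a level in Tomato+ cells. Smc4 stood at 11.2 to 67.2 CPM (median 39.2) over Tomato+ and 292.3 to 710.3 CPM (median 469) over Tomato- title numbers. Hmgb2 stood at 17.1 to 92.6 CPM (median 30.5) and 172.02 to 607 CPM (median 351.7). Neither overlapped between groups, and Hmgb2 had the smallest ratio of CPM of the 35 genes, 8.70-fold. At least 5 counts of Hmgb2 were present in 91 and of Smc4 in 66 Tomato+ cells, against 1 to 22 Tomato+ cells for the other 33 genes. In Tomato+ the top 5 cells accounted for 27.4% of Hmgb2 and 32.2% of Smc4 counts, so these low levels were spread over many cells.

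Among cyclins and kinases, Cdk1, the kinase that drives entry into mitosis, differed most in ratio of CPM. Cdk1 (chr10:69335146-69352938, minus strand, mm10) stood at 0 to 2.53 CPM (median 0.349) over Tomato+ and 70.9 to 138.7 CPM (median 96.8) over Tomato- title numbers. That is 208.2-fold in summed CPM, with a log2 ratio of -3.41 (SD 0.20). In Tomato+, 2 cells held at least 5 counts, against 29.3% of Tomato- cells. Its partner cyclin Ccnb1 stood at 159.5 CPM in Tomato- against 1.48 CPM in Tomato+ cells (1.24 to 1.76), with a log2 ratio of -3.88. Ccnb2, the other B-type cyclin here, had a ratio of -2.62 and Ccna2, the A-type cyclin of S and G2 phase, -3.22. Both were without overlap between title numbers.

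Plk1, the polo-like kinase of centrosomes and kinetochores, stood at 40.3 CPM in Tomato- against 0.753 CPM in Tomato+ cells (log2 ratio -2.23). Aurka, the centrosomal Aurora kinase, overlapped: 0 to 20.1 CPM (median 1.15) over Tomato+ and 11.1 to 147.9 CPM (median 39.4) over Tomato- title numbers. Ccnf, a cyclin that serves as an F-box ubiquitin ligase subunit, also overlapped, at 0 to 11.9 CPM (median 0) and 10.3 to 75.8 CPM (median 34.4). For Ccnf 98.9% of the Tomato+ counts came from 5 cells.

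The 4 checkpoint and anaphase genes were all without overlap. Ube2c, the ubiquitin-conjugating enzyme that works with the anaphase-promoting complex, stood at 0 to 29 CPM (median 0.550) over Tomato+ and 163.96 to 352.9 CPM (median 218.9) over Tomato- title numbers, with a log2 ratio of -3.95. Cdc20, the activator of that complex, stood at 94.8 CPM in Tomato- against 2.22 CPM in Tomato+ cells (ratio -3.10). The spindle checkpoint kinase Bub1 and its relative Bub1b (BubR1) had ratios of -2.17 and -2.20. At least 5 counts of Bub1 were present in 68 and of Bub1b in 57 Tomato- cells.

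Kinetochore and chromosomal passenger genes had the lowest median log2 ratio of the 6 roles with 10 CPM added, -3.75; with 1 CPM added their median was -4.91, against -4.96 for the chromosome structure genes. Cenpf, a large protein of the outer kinetochore (chr1:189640606-189688086, minus strand, mm10), stood at 0.674 to 20.5 CPM (median 4.97) over Tomato+ and 347.4 to 684 CPM (median 464) over Tomato- title numbers. Its ratio of -4.92 (SD 0.45) ranked 2 from the lowest of all genes, after Top2a, and 3 with 1 CPM added. Cenpe, the kinetochore kinesin, followed with 6.01 CPM in Tomato+ against 314.6 CPM in Tomato- cells and a ratio of -4.34. Cenpa, the centromeric histone H3 variant, had a ratio of -3.74, and Birc5 (survivin), a chromosomal passenger protein, -3.77.

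Aurkb, the kinase of the passenger complex, stood at 32.7 CPM in Tomato- against 0.521 CPM in Tomato+ cells (ratio -2.02), without overlap. Kif2c, a kinesin that takes microtubules apart at centromeres, overlapped at 0 to 11.9 CPM (median 0) and 6.61 to 52.9 CPM (median 21.1). In Tomato+, 1 cell held at least 5 counts of Kif2c.

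All 7 spindle genes were without overlap between title numbers, with a median log2 ratio of -3.19. Nusap1, which bundles microtubules near chromatin, stood at 0.315 to 54.1 CPM (median 2.10) over Tomato+ and 227.3 to 382.3 CPM (median 318.1) over Tomato- title numbers (ratio -3.92). Tpx2, the activator of Aurora A on the spindle, had a ratio of -3.63, and Kif11, the kinesin that pushes spindle poles apart, -3.59. Aspm, a protein of spindle poles whose loss causes microcephaly, had -3.19. Ckap2l, a spindle protein of neural progenitors, had -2.92, and the chromokinesin Kif4 -2.74. Kif20b had the smallest difference of the spindle genes, at 82.7 CPM in Tomato- against 8.38 CPM in Tomato+ cells (ratio -2.33), with at least 5 counts in 19 Tomato+ cells.

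Genes of the central spindle and cytokinesis had a median log2 ratio of -2.35, nearest to 0 of the 6 roles with 10 CPM added. With 1 CPM added it was -4.32, against -4.26 for the spindle genes, and their median ratio of CPM was 35.4-fold against 23.3-fold. Prc1, which crosslinks the antiparallel microtubules of the central spindle, stood at 0.260 to 23.8 CPM (median 5.02) over Tomato+ and 151.5 to 459 CPM (median 225.9) over Tomato- title numbers (ratio -3.88). Kif23, a kinesin of the centralspindlin complex, had a ratio of -3.11. With 1 CPM added both stood at -4.82. Ect2, the exchange factor that activates RhoA at the cleavage plane, had -2.38, and Anln (anillin), a scaffold of the contractile ring, -2.32.

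Iqgap3, a scaffold protein of the IQGAP family, overlapped by its extremes, at 0 to 7.25 CPM (median 0.097) and 6.83 to 57.6 CPM (median 24.7). Kif20a, a kinesin needed for cytokinesis, was the least detected gene, with at least 5 counts in 1 Tomato+ and 13 Tomato- cells. It was at 0 in at least 1 title number of both groups, and its log2 ratio was -1.03, or -3.40 with 1 CPM added. Ccnf, Kif2c, Iqgap3 and Kif20a are the 4 genes that missed the detection limit for comparison.

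The sum hides a division among cells. The number of the 35 genes with at least 5 counts in a cell reached 33 among Tomato- cells but 25 among Tomato+ cells, with 0 as the lowest in both. In Tomato-, 20 cells had none, 160 had 1 to 4, 49 had 5 to 9, 57 had 10 to 19 and 76 had at least 20. In Tomato+, 35.8% of cells had none and 62.7% had 1 to 4, while 2 cells had 5 to 9 and 3 had at least 10. Cells with at least 10 of the genes were thus 36.7% of the Tomato- group (31.8 to 41.9) against 0.917% of the Tomato+ group (0.190 to 2.66).

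**Figure D2:**
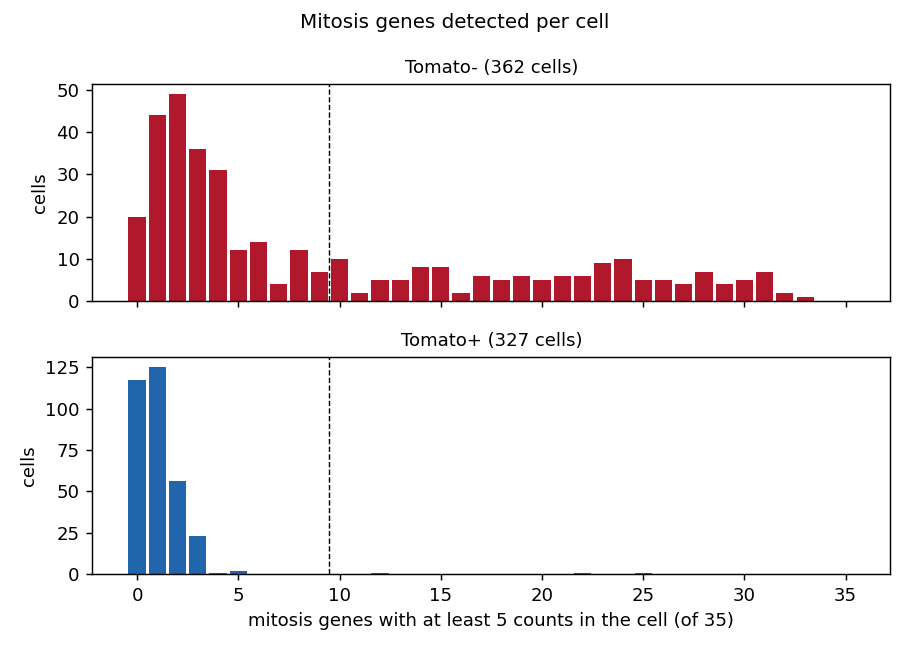
Number of cells (vertical axis, scaled separately for each group) by the number of the 35 genes with at least 5 counts (horizontal axis), for kept Tomato- cells above and kept Tomato+ cells below; the dashed line marks the limit of 10 genes. To the right of it lie 36.7% of Tomato- cells and 3 Tomato+ cells.

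This class is a range on a scale rather than a cell type: 36 Tomato- cells and 1 Tomato+ cell had 8 to 12 of the genes. The share of Tomato- cells in it ran from 25.7% to 52.8% over title numbers. After each cell was thinned to 94783 counts, which left out 36 Tomato- and 33 Tomato+ cells, the shares were 35.9% and 1.02%. Within Tomato-, median totals were 244838 counts in cells with at least 10 of the genes and 241369 in the others, and median numbers of genes detected were 3743 and 3760.

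Tomato- cells with at least 10 of the genes held 92.2% of their group's counts of the 35 genes. Across all Tomato- cells the summed level had a median of 1471 CPM and quartiles of 350 and 12774 CPM, with a highest cell at 44172 CPM. In Tomato+ cells the median was 99.9 CPM and the quartiles 25.7 and 217.05 CPM. The groups overlap in this measure, since many Tomato- cells also had low sums.

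The 3 Tomato+ cells with at least 10 of the genes held 38.5% of their group's counts, and without them the sum in Tomato+ cells was 155.9 CPM (153.2 to 158.5). Title number 5 held a pair of them. One had 25 of the genes, 705 counts of Fgf15, 31 of Atoh7 and 0 of Slc6a4. The other had 22 of the genes, 471 counts of Fgf15 beside 11 of Pou4f2, 83 of Pou4f1, 1435 of the ganglion cell gene Sncg and 6 of Slc6a4. Their totals were 458690 and 466698 counts, above the group median. The third, in title number 8, had 12 of the genes, counts of the progenitor gene Hes1, and 0 of Fgf15, Atoh7, Tfap2b, Pou4f2 and Slc6a4. No doublet caller was run, and whether any of these libraries held more than 1 cell was not tested. Without title number 5 the Tomato+ share was 0.346%, and without the 5% of cells with the highest totals it was 0.323%.

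Cells with Fgf15 carried most of the mitotic signal. A cell was called positive for a marker at 5 or more counts and could be positive for several; Fgf15-positive cells held 75.3% of the counts of the 35 genes in Tomato-, and Atoh7-positive cells 27.6%. Of Fgf15-positive Tomato- cells, which were 54.1% of the group, 53.6% (46.3 to 60.7) had at least 10 of the 35 genes. Of 46 Atoh7-positive cells 28 did (60.9%, 45.4 to 74.9). Of 39 Tfap2b-positive cells 11 did (28.2%, 15 to 44.9), and of 93 Pou4f2-positive cells 10 (10.8%, 5.28 to 18.9). The intervals of Fgf15 and Atoh7 overlap widely, whereas that of Pou4f2 lies below both. Median sums per cell were 6138 CPM with Fgf15, 14418 CPM with Atoh7, 512 CPM with Tfap2b and 324.2 CPM with Pou4f2. Within each class the sum spread widely: in Atoh7-positive cells the quartiles were 889.7 and 19787 CPM, and in Tfap2b-positive cells 230.1 and 4939 CPM.

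**Figure D3:**
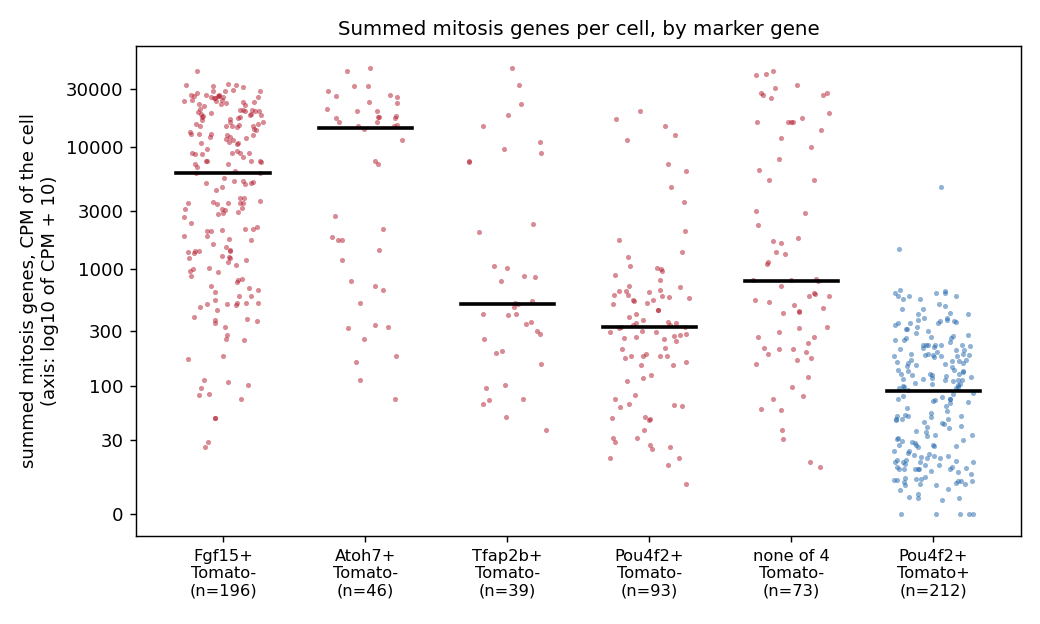
Summed level of the 35 genes in each cell (vertical axis, CPM on a scale of log10(CPM + 10)) for Tomato- cells positive for each marker or for none of the 4 (red), and for Pou4f2-positive Tomato+ cells (blue); black lines are medians, and a cell positive for several markers appears under each. Medians are 6138, 14418, 512, 324.2, 794 and 89.96 CPM from left to right.

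The markers overlap, so the classes were also split. The 26 Tomato- cells with both Fgf15 and Atoh7 had the highest share, with 20 (76.9%, 56.4 to 91) at 10 or more of the genes and a median of 23.5 genes per cell. Fgf15-positive cells without Atoh7 reached 50% (85 of 170) and Atoh7-positive cells without Fgf15 40% (8 of 20). Tfap2b-positive cells divided by the same markers: 10 of 20 with Fgf15 or Atoh7 and 1 of 19 without either (5.26%, 0.133 to 26). Pou4f2-positive cells did too, with 8 of 32 (25%, 11.5 to 43.4) and 2 of 61 (3.28%, 0.400 to 11.3). Depth differed between the classes, with median totals of 325092 counts in Pou4f2-positive cells against 237829 in Fgf15-positive cells. After thinning, which also reduced the marker counts, the share in Pou4f2-positive cells was 6.76%. That lies within the interval of 5.28 to 18.9 found before thinning.

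Read from the other side, 78.9% of the Tomato- cells with at least 10 of the genes were positive for Fgf15, 21.1% for Atoh7, 8.27% for Tfap2b and 7.52% for Pou4f2. Another 17 carried none of the 4 markers, out of 73 such Tomato- cells (23.3%). Among Pou4f2-positive Tomato+ cells, 64.8% of their group, 1 cell had at least 10 of the genes (0.472%, 0.0119 to 2.60). Of those without Fgf15 or Atoh7 it was 0 cells, with an exact interval that reaches 1.77%. The median sum in Pou4f2-positive Tomato+ cells was 89.96 CPM.

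**Figure D4:**
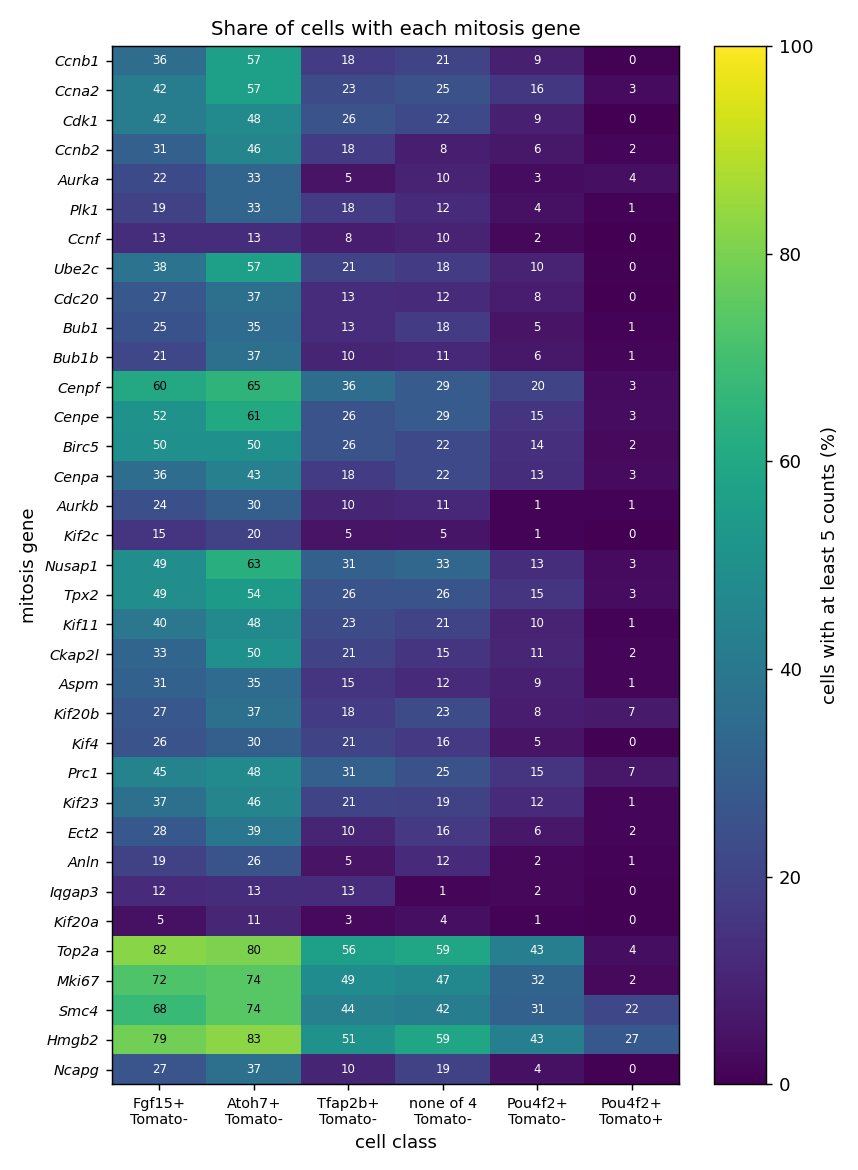
Percent of cells with at least 5 counts of each of the 35 genes (rows, grouped by role) in 5 classes of Tomato- cells and in Pou4f2-positive Tomato+ cells (columns); colour and printed number give the same value. Top2a is present in 82.1% of Fgf15-positive and 43% of Pou4f2-positive Tomato- cells and in 3.77% of Pou4f2-positive Tomato+ cells.

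Gene by gene, 32 of the 35 had a higher CPM in Atoh7-positive than in Fgf15-positive Tomato- cells, with a median ratio of 1.33. The 3 exceptions were Ccnb2, Ccnf and Iqgap3. Nusap1, for example, stood at 849 CPM in Atoh7-positive and 452 CPM in Fgf15-positive cells, and Ube2c at 599.7 and 336.2 CPM, whereas Mki67 stood at 1303 and 1261 CPM. In Pou4f2-positive cells 0 of the 35 genes were above their level in Fgf15-positive cells. For these counts of genes the share over all genes was not computed. The Atoh7 and Fgf15 classes share 26 cells, and the spread over animals is unknown. The count by gene was not repeated without the shared cells. Without the shared cells the sum of the 35 genes was 9386 CPM with Atoh7 and 8531 CPM with Fgf15. The median cell then went the other way, at 1770 CPM with Atoh7 and 5076 CPM with Fgf15.

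Between Pou4f2-positive cells of the groups, the Tomato- level exceeded the Tomato+ level by a median of 9.06-fold over the 35 genes. A few cells carried much of this: the 10 Tomato- cells of the class with at least 10 of the genes held 71.1% of its counts of the 35 genes, and 32 of the 93 Tomato- cells but 5 of the Tomato+ cells were also positive for Fgf15 or Atoh7. The sum of the 35 genes differed 6.55-fold over the whole class and 4.59-fold without those co-positive cells (663.3 CPM in Tomato- against 144.5 CPM in Tomato+), and the median cell 3.60-fold and 3.11-fold. Top2a was detected in 43% of this class in Tomato- and 3.77% in Tomato+, and Mki67 in 32.3% and 2.36%. Hmgb2 differed less, at 43% and 27.4%, and Smc4 at 31.2% and 21.7%. Aurka was the gene with the lowest ratio, 0.598, with detection in 3.23% and 4.25%.

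The 35 genes were not present or absent as a block. In the 160 Tomato- cells with 1 to 4 of the genes, Top2a was present in 44.4%, Hmgb2 in 42.5%, Mki67 in 25% and Smc4 in 22.5%, while Plk1 was present in 0.625% and Aurka, Kif20a and Kif2c in 0%. In the 57 cells with 10 to 19 genes, Mki67 was present in 100% and Top2a and Hmgb2 in 96.5%, but Cdk1 in 54.4%, Ccnb1 in 43.9% and Cdc20 in 22.8%. In the 76 cells with 20 or more, Cdk1 reached 86.8%, Ccnb1 85.5%, Cdc20 64.5%, Aurka 60.5% and Plk1 57.9%, and Kif20a 13.2%. Genes of few counts pass the limit of 5 in fewer cells, and the part of level in this order was not tested. Nearly every Cdk1-positive cell was also Top2a-positive (99.1%), whereas 37% of Top2a-positive cells were Ccnb1-positive.

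Over the kept Tomato- cells the 35 genes varied together. The 595 pairs had a median Pearson r of 0.45 on the scale of log2(CPM + 10), as a description over cells that share a pool and differ in depth. The highest was 0.75, between Top2a and Mki67, followed by Mki67 with Cenpf (0.75), Top2a with Smc4 (0.73), Cenpe with Cenpf (0.72) and Ccnb1 with Ube2c (0.72). Against the sum of the other 34 genes, r ran from 0.79 for Top2a to 0.21 for Kif20a. The lowest pair was Ccnf with Kif20a, at 0.06, both genes of few counts.

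**Figure D5:**
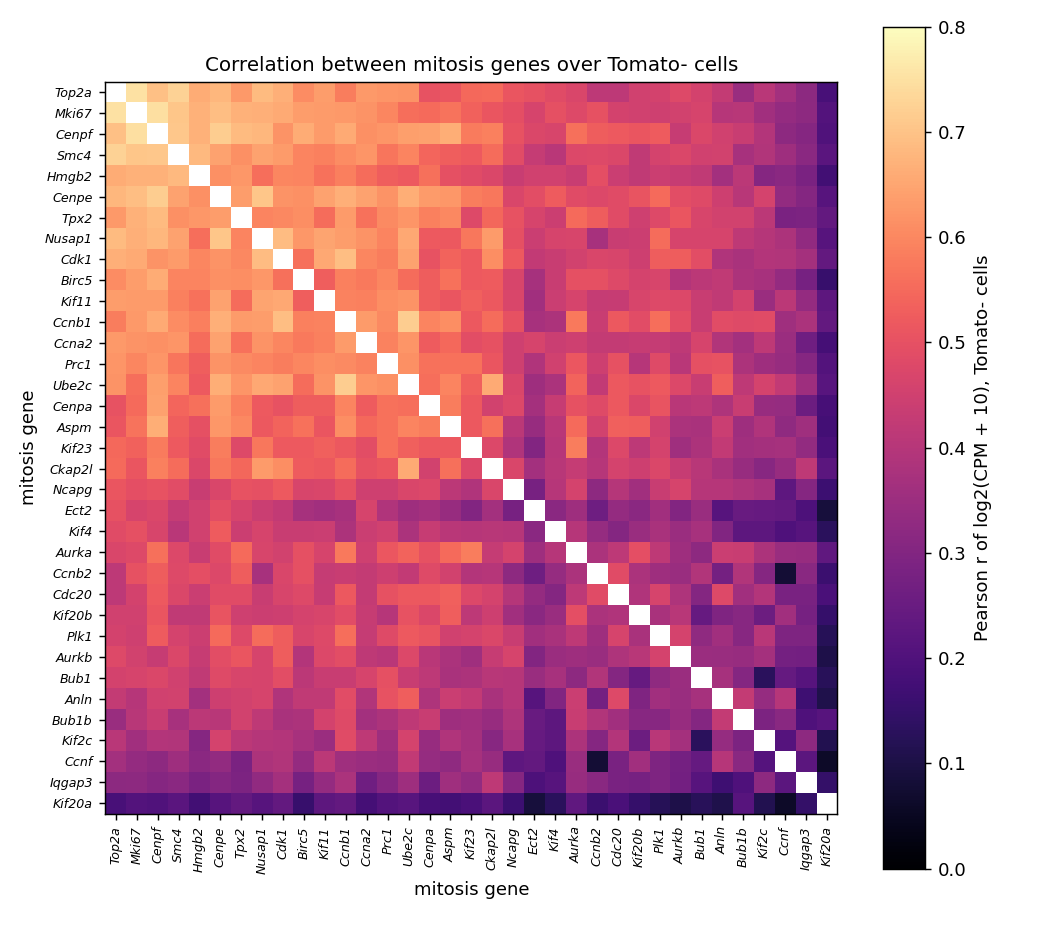
Pearson r of log2(CPM + 10) for each pair of the 35 genes over the kept Tomato- cells, with genes on both axes ordered by their correlation with the sum of the others; lighter is higher and the diagonal is left blank. The highest pair is Top2a with Mki67 (0.75) and the row of Kif20a is the darkest.

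Among 6763 other genes, those whose level was most like the sum of the 35 over the same cells were Cdca8 (r 0.68), a passenger complex subunit, and Spc25 (0.68), a subunit of the kinetochore NDC80 complex. Other genes high in this order were Cks2 (0.64), a CDK-binding protein, the mitotic kinase Pbk (0.63) and the noncoding RNA Lockd (0.61). The chromatin protein Dek (0.60), the spindle kinesin Kif15 (0.59), the D-type cyclin Ccnd1 (0.58) and Cdca3 (0.58) were also among the 10 highest. The markers stood at 0.51 (Fgf15), 0.23 (Atoh7), -0.12 (Tfap2b) and -0.43 (Pou4f2).

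Of 70 other mitosis genes, listed by function, 57 were at least 2-fold lower in Tomato+ and 0 higher, and 33 were without overlap. Of the 53 detected widely enough to be compared, 47 were at least 2-fold lower. Over all 8356 genes detected that widely, 6.33% were at least 2-fold lower and 3.67% without overlap in this direction. How many of the 53 passed only through Tomato- cells was not counted. The median log2 ratio of the 70 was -1.85. Hmmr, a microtubule-binding protein, had -3.69, Spc25 -3.68 and Kif15 -3.59. Fzr1, the Cdh1 activator of the anaphase-promoting complex that works in G1 and in neurons, stood at 52.1 CPM in Tomato+ against 51.9 CPM in Tomato- cells, in contrast to its relative Cdc20. The inner kinetochore gene Cenpt was also close, at 62.5 and 64.4 CPM.

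Of 28 S phase genes, 25 were at least 2-fold lower in Tomato+, with a median log2 ratio of -1.90. Of the 22 detected widely enough to be compared, 21 were, against 6.33% of all genes compared. The ribonucleotide reductase subunit Rrm2 had -3.15, Dtl -3.15, the chromatin remodeller Hells -2.61 and the helicase subunit Mcm3 -2.60, whereas the histone mRNA-binding protein Slbp had -0.44 and the polymerase subunit Pola1 -1.26. Only some cells reached a limit of 10 genes for both mitosis and S phase. Of the Tomato- cells with at least 10 of the 35 genes, 61 also had at least 10 of the 28 S phase genes. The other 72 had fewer than 10. Another 28 Tomato- cells had at least 10 of the S phase genes but fewer than 10 of the 35. Cells below a limit could still hold genes of that list. Most Tomato- cells with at least 10 of the 35 genes had at least 3 S phase genes detected.

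Of 8 D-type cyclins and CDK inhibitors, 3 were at least 2-fold lower and 1 at least 2-fold higher in Tomato+. Among the 6 detected widely enough to be compared, 2 were lower and 1 higher, against 6.33% and 3.51% of all genes compared. Ccnd1 had a ratio of -4.82, close to that of Top2a, and Ccnd3 -1.12. The CDK inhibitor Cdkn1a was the gene in the other direction, at 61.3 CPM in Tomato+ against 18.2 CPM in Tomato- cells (ratio 1.34), while Cdkn1b had -0.68, Cdkn1c 0.37 and Cdkn2d 0.40. Of 18 regulators of mitotic promoters, 5 were at least 2-fold lower in Tomato+. Among the 12 detected widely enough to be compared, 4 were. Foxm1 stood at 31 CPM in Tomato- against 1.25 CPM in Tomato+ cells (ratio -1.87), Rbl1 (p107) had -1.77, E2f8 -1.50 and E2f1 -1.47. Lin37, a MuvB core subunit, had 0.07 and Nfyb, an NF-Y subunit, -0.21.

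Summed markers of cell types differed between the groups too, some of them through few cells. Summed ganglion cell markers (12 genes) stood at 20639 CPM in Tomato+ against 9283 CPM in Tomato- cells, and progenitor markers (9 genes) at 77.2 and 2609 CPM. Microglial markers (10 genes) stood at 8.64 CPM in Tomato+ against 184.8 CPM in Tomato- cells, with Tomato- title numbers from 0.194 to 1155 CPM, and endothelial markers (10 genes) at 9.34 and 99.1 CPM. Of the endothelial sum in Tomato- cells 79.6 CPM was Kdr, present in 22.4% of them, while Cdh5 and Emcn were at 0 in both groups and the median log2 ratio of the list was -0.03. Of the Tomato- cells with at least 10 of the mitosis genes, 1 had at least 3 detected microglial markers and 0 had 3 endothelial, erythroid or mesenchymal markers. At least 3 progenitor markers were present in 85.7% of them and at least 3 neurogenic precursor markers in 47.4%. At least 3 ganglion cell markers, a list that includes broad neuronal genes, were present in 81.2% of them, against 86.7% of all Tomato- cells. Whether RNA from other cells reached these libraries was not tested. Erythroid markers (10 genes) stood at 1716 CPM in Tomato+, from 1.87 to 9304 CPM over title numbers, and at 4.08 CPM in Tomato- cells.

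Some counts are uncertain because transcripts resemble or overlap one another and the use of strand in counting is not given in the sources used here. Ccnb1 transcripts are 96.6% to 99.2% identical to stretches of Ccnb1-ps, Gm12856, Gm7483 and Gm8416, and Hmgb2 to 5 predicted genes at 97.9% to 99.7%. Mki67 is 98.6% identical to a short stretch of Gm44521. Ccna2, Kif20a, Kif4 and Ncapg overlap genes on the opposite strand, Exosc9, Cdc23, Pdzd11 and Lcorl. In Kif20a the overlap with Cdc23 spans 979 bases.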

How the data were processed

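The authors deposited 1 table of counts per gene and cell, whole numbers that are not normalized. Its 801 column names end in "umi", and whether the counts are molecules or reads is not stated; 1 column fits no labelled cell and stayed unused. Per the submitters' processing notes the genome is mm10 and the tools include Seurat 2.3 and R 3.4.4; the aligner, counter and annotation are not given in the sources used here. The labels name SmartSeq2, and the series title names C1.

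Computed here, with Python 3.11.15, numpy 2.4.6 and scipy 1.17.1: cells with at most 20% mitochondrial counts and at least 1000 genes were kept, counts were summed per group and divided by the group total, and log2 ratios were taken with a pseudocount of 10 CPM. This kept 327 Tomato+ and 362 Tomato- cells. Of the latter, 133 had at least 10 of the 35 genes, and 196 were positive for Fgf15 (105 with at least 10 genes), 46 for Atoh7 (28), 39 for Tfap2b (11) and 93 for Pou4f2 (10). Of the former, 212 were positive for Pou4f2 (1), and 207 of these lacked Fgf15 and Atoh7 (0). A gene was compared with the background where at least 10% of the cells of either group held 5 counts. Thinning drew 94783 counts per cell without replacement, the 10th percentile of totals. The SD between title numbers is the square root of the mean of both groups' variances of log2(CPM + 10). Because the labels give no animals, no p-value was computed. The log2 ratios of group sums, the 2-fold calls and the ranking of genes like a sum were tested on simulated data. The other steps were not. Scaling alternatives used edgeR 4.0.16 (TMM) and DESeq2 1.42.0 (median of ratios) in R 4.3.3, as factors only. Similar transcripts (at least 95% identity over 200 bases) were found with BLAST 2.17.0 in GENCODE transcripts. No doublet caller was run, and 0 cells were left out as doublets.

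The 35 genes, the other lists and the classes were chosen with earlier results of these data known. Named are all 35 genes and, of each other list, up to 4 with the largest and 2 with the smallest ratio among genes detected widely enough, the 10 genes most like the sum, and the 4 markers. The values of 1 gene that this rule names are not reported here. Pou4f1, Sncg, Hes1 and Slc6a4 in single Tomato+ cells were named after their values were seen.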

Additional observations from a re-analysis of the deposited data

Results flagged for a closer look

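Cells left out for more than 20% mitochondrial counts also carried the mitosis genes. Of the 38 Tomato- cells left out, 6 had at least 10 of the 35 genes, a share of 15.8% (exact 95% binomial interval 6.02 to 31.3), against 0 of the 73 Tomato+ cells left out, with an exact interval that reaches 4.93%. The summed level of the 35 genes in these cells was 3988 CPM in the Tomato- cells left out, and the median totals were 88370 counts in Tomato- and 94705 in Tomato+, below those of the kept cells. The result was picked out because it lies in cells that no comparison above uses.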

How the results depend on the processing

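Each group is 1 pool, title numbers are parts of it, and a cell's markers and mitosis genes share its depth, so intervals cover counting error only. No paired analysis was possible by title number, because title numbers 1 to 10 are Tomato+ and 11 to 20 Tomato-, with no number shared. The cell titles also give a row, and rows hold cells of both groups. A comparison within rows was not run, and the spread between rows was not measured. Leaving out 1 title number at a time, the log2 ratio of the sum ran from -5.10 to -4.58, genes at least 2-fold lower from 34 to 35, genes without overlap from 30 to 32 and other mitosis genes at least 2-fold lower from 54 to 58. Shares with at least 10 genes ran from 34.97% to 37.9% in Tomato-, 0.346% to 1.03% in Tomato+, and within Tomato- from 51.1% to 55.1% (Fgf15), 57.1% to 65.9% (Atoh7), 26.7% to 30.6% (Tfap2b) and 9.30% to 11.9% (Pou4f2). Of 83 other alternatives, 67 were called unchanged and 16 moved, by construction where a limit was loosened or tightened. Unchanged meant within the counting interval for shares of cells and within the SD between title numbers for the sum. For counts of genes it meant within a fixed fold of the main count, which does not measure their spread. With a gene detected at 1 count, the shares were 64.4% (Tomato-), 76.02% (Fgf15), 86.96% (Atoh7), 58.97% (Tfap2b) and 39.8% (Pou4f2). With at least 5 genes they were 50.3% (Tomato-), 67.9% (Fgf15) and 23.7% (Pou4f2), and with at least 15 genes 28.5% (Tomato-) and 40.8% (Fgf15). With markers at 1 count they were 41.02% (Fgf15) and 26.7% (Pou4f2), with markers at 20 counts 78.6% (Atoh7), and in cells positive for 1 marker alone 8.33% (Tfap2b) and 3.70% (Pou4f2). Without title numbers 5 and 8, an alternative chosen after seeing the data, the ratio of the sum was -5.30. Over 945 alternatives for the 35 single ratios, 0 were above 0 and the highest was -0.79. Of these 30 moved by more than the SD between title numbers, all with 1 CPM added, where the 35 ratios ran from -6.11 to -3.05 (Cdk1 to Aurka) and their order changed. With no filter beyond 1 count, 3.18% of all genes were at least 2-fold lower, against 6.33%.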
